A study of Mus musculus with 15 samples.

Results

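The miR-30 family was followed arm by arm in mouse midbrain. Its members were every listed mature miRNA whose name, without the arm or copy suffix, is miR-30a, miR-30b, miR-30c, miR-30d or miR-30e, and 11 of the 396 listed miRNAs met that rule. They comprised 5 arms from the 5′ side of a hairpin (5p) and 6 from the 3′ side (3p). The family was picked because its arms differed in opposite directions between A30P and WT mice, so the A30P against WT values of the members are a description. Calls from the fit across all miRNAs are given only as counts beside the share called among all miRNAs, and nothing rests on them.

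The A30P group held 7 midbrain samples from C57BL/6 mice whose genotype is given as A30P alpha-synuclein +/+, and the WT group held 8 midbrain samples from wild-type C57BL/6 mice. All mice were 6 months old, and small RNA was sequenced once per sample. Alpha-synuclein is a protein of presynaptic terminals, and its A30P variant is known from familial Parkinson's disease. The sources used here give neither the promoter or allele that carries A30P nor whether the samples are separate animals, so the spread between samples may be technical in part. The A30P samples are numbered 1, 2, 3, 4, 6, 7 and 8, and the WT samples 1 to 8.

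A miRNA hairpin is cut by Drosha and then by Dicer into a duplex of a 5p and a 3p strand. One strand is loaded into an Argonaute protein and the other is usually degraded. The ratio of the arms in sequencing reads reflects which strand was kept, but also how well each sequence was captured into the library. Argonaute proteins favour strands that begin with U or A, and strands whose 5′ end is weakly paired in the duplex. The loaded strand finds its targets mainly through its seed, bases 2 to 8. The 5p arms of the miR-30 family share a seed. Targets known for miR-30a-5p include the transcript of brain-derived neurotrophic factor and, in human cancer cells, that of the autophagy protein Beclin 1.

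The mature sequences show which arms can recognise the same targets, and how little separates some of them. RefSeq (GRCm38.p6) gave a sequence for 7 of the 11 arms, printed here 5′ to 3′ with the seed in capitals. The 5p arms are listed first, together with miR-384-5p, the one other listed miRNA that carries their seed.
miR-30a-5p: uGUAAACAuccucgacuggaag
miR-30e-5p: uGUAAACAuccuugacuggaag
miR-30c-5p: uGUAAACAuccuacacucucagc
miR-384-5p: uGUAAACAauuccuaggcaaugu
miR-30a-3p: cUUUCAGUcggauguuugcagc
miR-30e-3p: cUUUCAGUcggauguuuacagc
miR-30c-1-3p: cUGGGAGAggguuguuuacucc
miR-30c-2-3p: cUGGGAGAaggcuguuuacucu

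The 3p arms with a sequence fall into 2 seed groups, both different from the 5p seed. Positions are counted from 1 at the 5′ end. miR-30a-5p and miR-30e-5p differ by the single substitution C13U, and miR-30a-3p and miR-30e-3p by the single substitution G18A, in each case with the miR-30a base first. miR-30c-1-3p differs from miR-30c-2-3p by G9A, U12C and C22U, with the miR-30c-1 base first. The sources used here do not say how reads that fit more than one of these near-identical arms were counted, so the split between miR-30a and miR-30e is uncertain. Every 5p arm with a sequence begins with U and every such 3p arm with C, and GC content was 40.9% to 45.5% in the 5p arms and 45.5% to 54.5% in the 3p arms.

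The hairpins show where the arms sit, here with both mature arms in capitals. Their positions are in GRCm38, whereas the submitters' processing notes name mm9.
Mir30a: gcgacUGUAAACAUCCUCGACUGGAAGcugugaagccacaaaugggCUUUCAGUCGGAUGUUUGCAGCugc
Mir30c-2: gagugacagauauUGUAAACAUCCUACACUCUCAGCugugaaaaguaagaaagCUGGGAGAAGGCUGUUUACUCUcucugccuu
Mir30c-1: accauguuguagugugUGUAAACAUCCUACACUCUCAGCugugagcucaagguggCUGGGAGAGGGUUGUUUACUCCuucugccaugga
Mir30e: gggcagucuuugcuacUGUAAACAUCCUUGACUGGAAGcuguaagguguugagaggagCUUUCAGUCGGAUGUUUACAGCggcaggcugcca

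Mir30a (chr1:23272269-23272339, plus strand) has no annotated host gene on its strand, and Mir30c-2 (chr1:23291701-23291784, plus strand) overlaps an exon of the long noncoding RNA Gm27028, with 19361 bases between them. Mir30c-1 (chr4:120769534-120769622, minus strand) and Mir30e (chr4:120772606-120772697, minus strand) lie in introns of Nfyc, the gene of a subunit of the CCAAT-binding factor NF-Y, with 2983 bases between them. Mir30b and Mir30d lie on chromosome 15. Mir30c-1 and Mir30c-2 give the same 5p sequence, so miR-30c-5p reads cannot be assigned to either copy, whereas their 3p arms can be told apart. For miR-30c the 5p reads were therefore set against the sum of the reads of both 3p arms.

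The libraries differed in depth. Reads of listed miRNAs numbered 21731 to 3500431 in A30P libraries (median 92827) and 724813 to 9762286 in WT libraries, and 122 to 395 miRNAs had reads in A30P libraries against 375 to 396 in WT libraries. One read was worth 0.174 to 56.4 normalized counts in A30P libraries and 0.0848 to 0.806 in WT libraries, so a listing at 0 (up to 3 reads) allows up to 169 normalized counts in A30P replicate 4 and up to 2.42 in WT replicate 1. A30P replicate 6 was the deepest A30P library and stood apart from the other 6 in most 5p arms, and WT replicates 1 and 8 were the shallowest WT libraries. One letter tag in the column names is shared by all A30P libraries and another by all WT libraries. If it marks a batch, batch and genotype cannot be told apart. Neuronal marker miRNAs (miR-124-3p, miR-128-3p and miR-129-5p) took 0.548% to 3.47% of listed reads in A30P libraries and 5.21% to 12.3% in WT libraries, without overlap, and miR-124-3p had no reads in at least one A30P library. In the fit across all miRNAs miR-124-3p and miR-128-3p were lower in A30P (log2 fold changes -4.47 and -3.14) and miR-129-5p was higher (1.06). Choroid plexus and ciliated cell markers (miR-204-5p and miR-34c-5p) took 0.00460% to 0.172% in A30P and 0.180% to 0.551% in WT, also without overlap. The groups overlapped for the 2 listed oligodendrocyte markers (0.106% to 0.867% in A30P, 0.395% to 1.06% in WT), the 3 endothelial and smooth muscle markers (0.377% to 1.88% in A30P, 0.702% to 2.45% in WT) and the erythrocyte marker miR-451a (0.00429% to 0.121% in A30P, 0.00467% to 0.0180% in WT). In the same fit, miR-338-3p (-4.93), miR-145a-5p (-3.51) and miR-126a-3p (-2.42) of these overlapping sets were called lower in A30P, and miR-143-3p (1.60) and miR-451a (2.03) higher. miR-219a-2-3p (-0.73) was not called. In the choroid plexus set miR-204-5p (-2.95) was called lower and miR-34c-5p (-2.71) was not called. Over all miRNAs 71% were called lower and 8.33% higher. On the share of listed reads, 30.8% of all miRNAs lay below WT without overlap. No microglial marker of the list was listed. Depth and the summed neuronal and choroid plexus marker shares thus moved with genotype, and their part in the values below was not tested.

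The comparison addressed how the arms of the family stood in A30P and WT midbrain. The 3p arms of miR-30a, miR-30e and miR-30c-2 were higher in every A30P library than in any WT library, and the 5p arms of miR-30c and miR-30d were lower in every A30P library than in any WT library. The 3p arm of miR-30c-1 was listed lower in every A30P library, but 4 of the 7 were listed at 0, with limits that cover most WT levels. The 5p arms of miR-30a, miR-30e and miR-30b had lower means in A30P, with overlapping groups. miR-30b-3p and miR-30d-3p were low in both groups and overlapped. In bulk tissue, fewer cells of a type and less RNA per cell cannot be told apart.

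Among the 5p arms, miR-30c-5p (mmu-miR-30c-5p in the table) was the most abundant in WT. It had 211, 282 and 2314 normalized counts in A30P libraries (lowest, median and highest, n = 7), against 4070.4, 10442 and 14993 in WT libraries (n = 8). Every A30P library lay below every WT library, and A30P replicates 6 and 2, at 2314 and 904, were the highest of their group. The means were 645 ± 775 in A30P and 10079 ± 3948 in WT (SD), a log2 fold change on the log2(value + 1) scale of -4.46 (SE 0.49).

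miR-30d-5p (mmu-miR-30d-5p), from the hairpin on chromosome 15, had 190, 226 and 968 normalized counts in A30P libraries, against 2221, 4639.8 and 5775 in WT libraries. The groups did not overlap, and A30P replicate 6 again held the 968. Its log2 fold change was -3.83 (SE 0.39).

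miR-30a-5p (mmu-miR-30a-5p), the arm with the known brain-derived neurotrophic factor target, had 0, 211 and 1038 normalized counts in A30P libraries, against 281, 1541 and 2635 in WT libraries. The listing at 0, in A30P replicate 7, allows up to 154 normalized counts. The groups overlapped because A30P replicate 6, at 1038, lay above WT replicates 1 and 8, at 281 and 284. Its log2 fold change was -3.31 (SE 1.06), -2.17 without A30P replicate 7, and -1.77 without the 4 A30P libraries under 100000 listed reads, where it was no longer called. In the authors' deposited table the log2 fold change of miR-30a-5p is 0.46 (SE 0.50), of the opposite sign. That of miR-30b-3p (0.07) and of miR-30d-3p (0.95) in that table is also opposite in sign to the fit. For miR-30e-5p (-0.53), miR-30b-5p (-0.30), miR-30c-5p (-2.03) and miR-30d-5p (-2.12) its values are smaller in size than the fitted ones. By its adjusted p-values miR-30a-5p, miR-30e-5p and miR-30b-5p did not pass 0.05, while miR-30c-5p and miR-30d-5p did. The sources used here do not say how those estimates were made.

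miR-30e-5p (mmu-miR-30e-5p) had 0, 38.6 and 307 normalized counts in A30P libraries, against 26.6, 272 and 534 in WT libraries. The 307 belongs to A30P replicate 7, where it stands for 6 reads, and the listing at 0 belongs to replicate 4. The groups overlapped and the log2 fold change was -2.71 (SE 1.02). Without the 4 shallow A30P libraries it was also -1.77 and not called. miR-30b-5p had reads in 2 of 7 A30P libraries, at 59.6 normalized counts (replicate 6) and 5.15 (replicate 8), while WT libraries had 10.5 to 450. Its fitted log2 fold change of -5.66 therefore depends on the pseudocount of 1.

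miR-384-5p lies on the X chromosome and shares the 5p seed without being a family member. It had 0 to 32.7 normalized counts in A30P libraries and 11.3 to 590 in WT libraries, with overlapping groups. A30P replicates 1, 4 and 7 were listed at 0, which allows up to 52.6, 169 and 154 normalized counts, and the 20.1 of replicate 2 is 1 read.

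Among the 3p arms, miR-30a-3p (mmu-miR-30a-3p) had 2946, 9369 and 20076 normalized counts in A30P libraries, against 607, 953 and 1182 in WT libraries. The groups did not overlap, and the lowest A30P value was that of replicate 6. Its log2 fold change was 3.35 (SE 0.38). miR-30e-3p (mmu-miR-30e-3p), its seed mate from the Nfyc locus, had 1892, 3877 and 6009 normalized counts in A30P libraries, against 265, 648 and 893 in WT libraries. Here too the groups did not overlap, replicate 6 was the lowest A30P library, and the log2 fold change was 2.65 (SE 0.37).

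miR-30c-2-3p had 363, 803 and 1507 normalized counts in A30P libraries, against 129, 195 and 255 in WT libraries, without overlap. Its log2 fold change was 1.99 (SE 0.43), and on the share of listed reads its groups did overlap (0.0595% to 0.0808% in A30P, 0.0158% to 0.0612% in WT). miR-30c-1-3p, with the same seed, had reads in 3 of 7 A30P libraries, at 8.52, 8.88 and 2.57 normalized counts in replicates 3, 6 and 8, against 27.4 to 68.6 in WT libraries. Replicates 1, 2, 4 and 7 were listed at 0, which in replicates 2 and 4 allows up to 60.3 and 169 normalized counts, so in those 4 libraries most WT levels would not have been detectable. miR-30b-3p had 0 to 60.3 normalized counts in A30P libraries and 29.2 to 67.8 in WT libraries, and miR-30d-3p 0 to 40.2 in A30P and 0.806 to 13.3 in WT. Neither passed the test across all miRNAs.

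**Figure D1:**
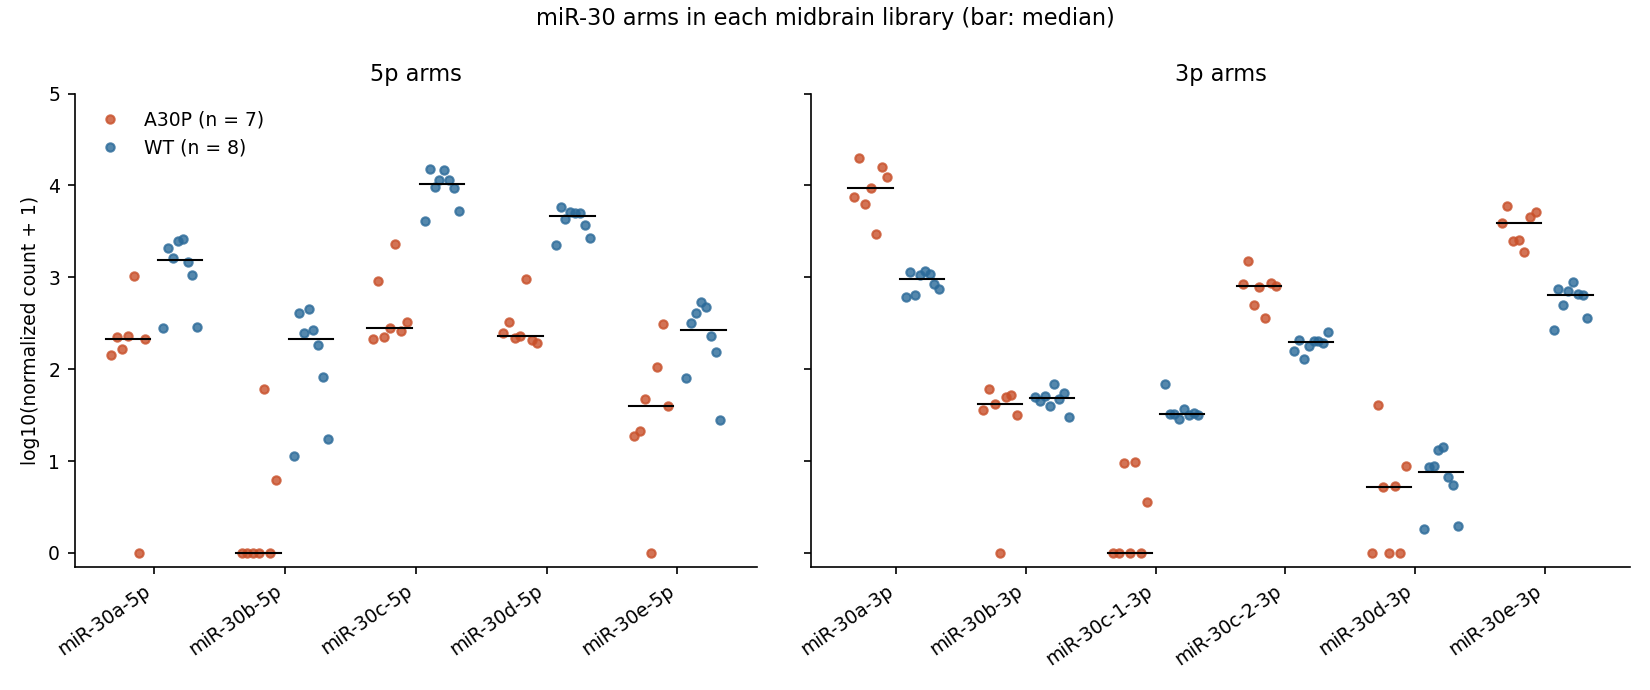
Normalized counts of the 11 miR-30 arms in every library, as log10(value + 1), with 5p arms in the left panel and 3p arms in the right one, A30P (n = 7) left of WT (n = 8) for each arm, each point a library and each bar the median. The points of miR-30a-3p, miR-30e-3p and miR-30c-2-3p lie higher in A30P, and those of miR-30c-5p and miR-30d-5p lower, without overlap.

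Counted over the family, limma on log2(value + 1) with Benjamini-Hochberg adjustment called 3 of the 11 arms higher in A30P (miR-30a-3p, miR-30e-3p and miR-30c-2-3p) and 6 lower (the 5 5p arms and miR-30c-1-3p). Over all 396 miRNAs it called 8.33% higher and 71% lower, or 79.3% in either direction. Because the family was picked on this contrast, nothing is read from its counts. The median log2 fold change was -3.83 over the 5 5p arms and 0.65 over the 6 3p arms, beside -2.57 over all miRNAs, -2.44 over the 192 listed 5p arms and -2.70 over the 192 listed 3p arms. Without overlap between the groups, 3 of the 11 arms lay higher in A30P and 3 were listed lower, where 4.04% and 23.7% of all miRNAs did. On the share of listed reads 2 of the 11 lay higher (miR-30a-3p and miR-30e-3p) and 3 were listed lower, where 2.53% and 30.8% of all miRNAs did. One of the 3 listed lower, on either measure, is miR-30c-1-3p, whose separation rests on 4 listings at 0 and was not shown at this depth. edgeR's quasi-likelihood test on the recovered reads with TMM scaling tested 10 of the 11 arms and called 3 higher and 4 lower, against 19.5% higher and 35.8% lower of the 318 miRNAs it tested. miR-30a-5p and miR-30e-5p were not called there, with log2 fold changes of -0.96 and -0.69. The median of all miRNAs moved by 0.74 when the deposited values were scaled by TMM, and by -0.35 when each library was scaled to its listed reads. Under both, the signs for miR-30a-3p, miR-30e-3p, miR-30c-2-3p, miR-30c-1-3p and the 5 5p arms were as above, but miR-30a-5p (-2.23) and miR-30e-5p (-1.67) were no longer called with TMM scaling.

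The family as a whole took 1.10% to 1.68% of listed reads in A30P libraries and 1.34% to 3.16% in WT libraries, which overlapped. Its 5p arms took 0.0538% to 0.736% in A30P and 1.14% to 2.89% in WT, without overlap. Its 3p arms took 0.864% to 1.61% in A30P and 0.165% to 0.342% in WT, again without overlap. These shares do not depend on the scaling between libraries, although each is relative to all other listed miRNAs.

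Within the family, the reads were mainly 3p in A30P and mainly 5p in WT. The 3p arms held 54.0%, 94.97% and 96.5% of family reads in A30P libraries (lowest, median and highest), against 7.74%, 9.66% and 14.7% in WT libraries. The mean was 89.2% ± 15.6 in A30P (SD, n = 7) and 10.6% ± 2.68 in WT (SD, n = 8). The 54.0% is A30P replicate 6 (Wilson 95% interval 53.6% to 54.4%), and the other A30P libraries lay between 93.4% and 96.5%. The shallowest A30P library, replicate 4 with 238 family reads, had an interval of 90.9% to 96.8%. All intervals and limits here cover only the sampling of reads. As far as is known the counts used no molecular identifiers, so copies of a molecule are not allowed for. Within each group the library or libraries nearest the other genotype were also the nearest in depth. A30P replicate 6 held 3500431 listed reads, and WT replicates 1 and 8, with 3p shares of 14.7% each, held 724813 and 1326236. The part of depth was not tested.

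**Figure D2:**
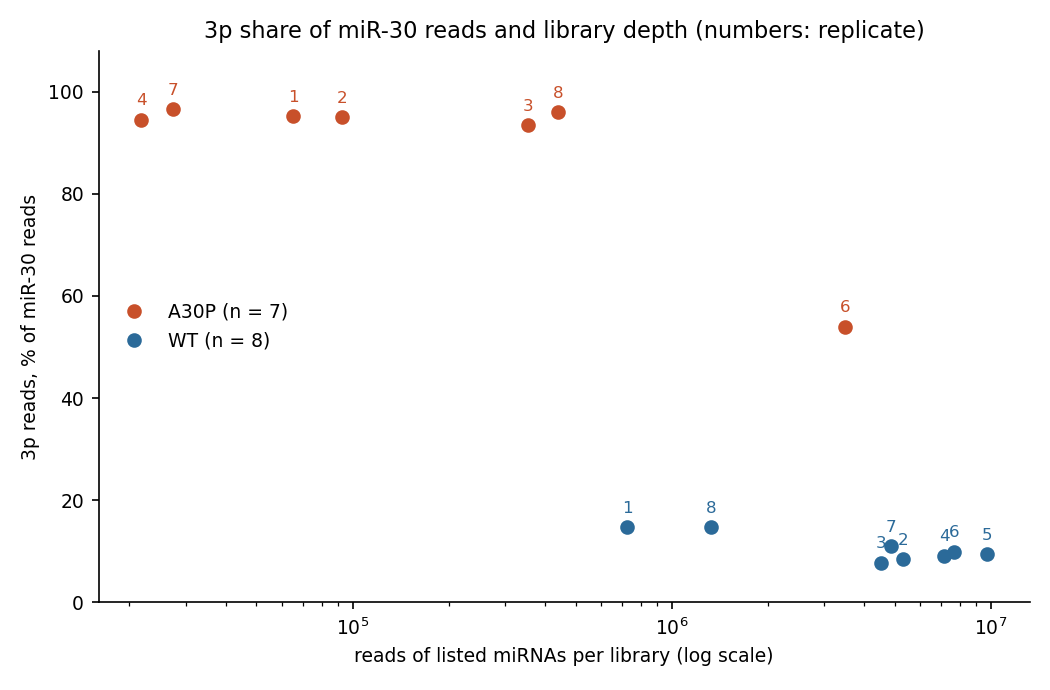
Share of miR-30 reads that are 3p (vertical axis, percent) against the reads of listed miRNAs in the library (horizontal axis, log scale), one point per library with its replicate number, A30P (n = 7) and WT (n = 8). The A30P libraries lie at 54.0% (replicate 6) and at 93.4% to 96.5%, the WT libraries at 7.74% to 14.7%.

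Hairpin by hairpin, the 3p share of miR-30a was 73.9%, 98.1% and 100% in A30P libraries (lowest, median and highest), against 28.4%, 38.8% and 72.3% in WT libraries. The groups did not overlap, but A30P replicate 6 (73.9%, interval 73.4% to 74.5%) and WT replicate 8 (72.3%, interval 70.8% to 73.8%) nearly met. The log2 ratio of 3p to 5p reads averaged 5.59 ± 2.28 in A30P and -0.35 ± 1.06 in WT (SD), a difference of 5.95. The 100% is A30P replicate 7, with no 5p read among 308, so its log2 ratio of 9.27 rests on the 0.5 reads added to each arm. A30P replicates 1, 2 and 4 had 8, 11 and 4 reads of the 5p arm.

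For miR-30e the 3p share was 93.7%, 99.2% and 100% in A30P libraries, against 54.8%, 72.2% and 93.1% in WT libraries. The groups did not overlap, although A30P replicate 7 (93.7%, interval 86.9% to 97.1%) and WT replicate 8 (93.1%, interval 91.6% to 94.4%) could not be told apart by counting. The difference in the mean log2 ratio was 4.51. A30P replicates 1, 2, 4 and 7 had 1, 1, 0 and 6 reads of the 5p arm, so their ratios rest on few reads. The 100% is replicate 4, with 45 reads. In this hairpin the 3p arm already led in WT.

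For miR-30c the 3p share was 13.8%, 71.1% and 80.0% in A30P libraries, against 1.57%, 1.87% and 5.24% in WT libraries, without overlap. A30P replicate 6 held the 13.8%, and the other 6 lay at 62.5% or above. A30P replicates 4 and 7 held only 19 and 22 miR-30c reads, with intervals of 51.2% to 88.2% and 56.6% to 89.9%. The log2 ratio averaged 0.80 ± 1.56 in A30P and -5.37 ± 0.75 in WT (SD), so the mean lay on the 3p side in A30P and on the 5p side in WT, with a difference of 6.17.

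The remaining pair, miR-30d and miR-30b, rest on fewer A30P reads in total. miR-30d stayed 5p-dominant, with a 3p share of 0% to 11.1% in A30P libraries and 0.0355% to 0.268% in WT libraries. These shares overlapped, and the 11.1% is 2 of 18 reads in A30P replicate 2 (interval 3.10% to 32.8%). The log2 ratios of miR-30d did not overlap, with a difference of 5.19, but 3 A30P libraries had no 3p read and their ratios rest on the 0.5 reads added to each arm. miR-30b had a 3p share of 44.8% to 100% in the 6 A30P libraries with reads, against 8.01% to 82.4% in WT libraries. The groups overlapped. The difference in the mean log2 ratio was 3.32 over all 7 A30P libraries, where replicate 4, without reads, entered as equal arms. Without replicate 4 it was 3.66. Outside replicate 6, no A30P library had more than 19 miR-30b reads, and replicate 4 had none.

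**Figure D3:**
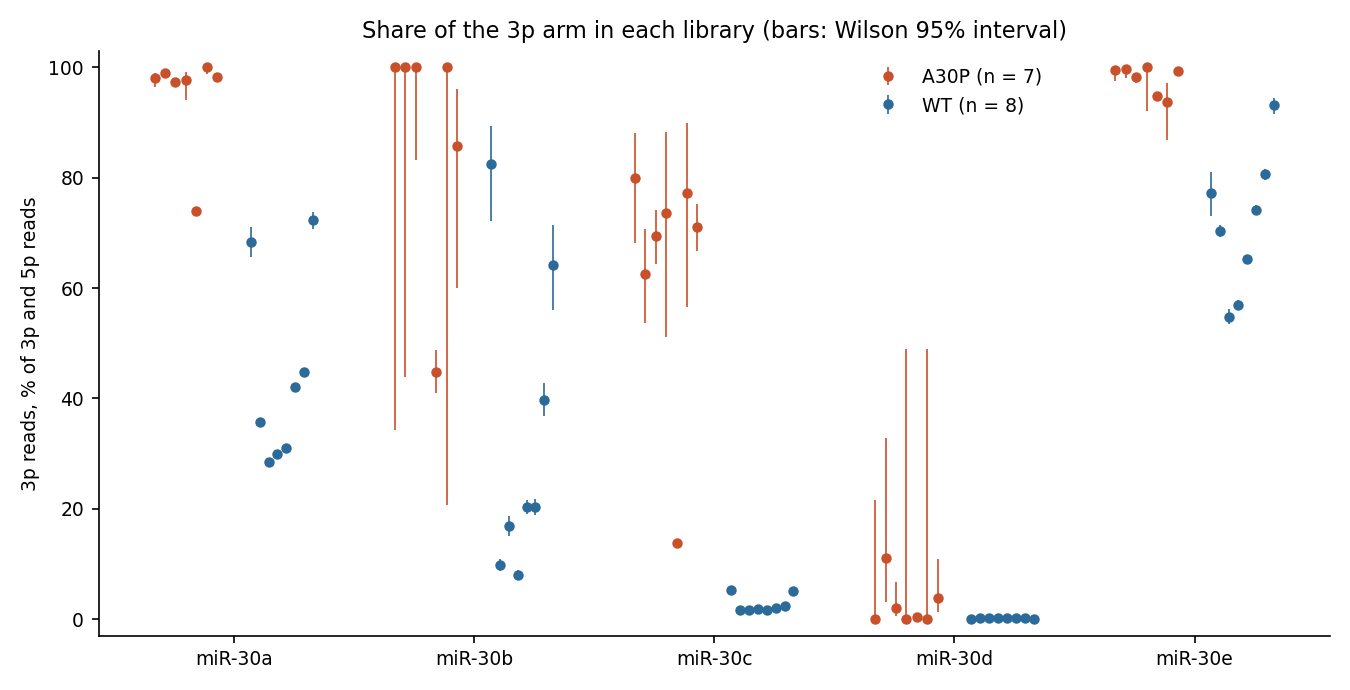
Share of 3p reads among the 3p and 5p reads of each miR-30 hairpin (vertical axis, percent), one point per library, A30P (n = 7) left of WT (n = 8), with the Wilson 95% interval as a bar. miR-30a, miR-30c and miR-30e separate by genotype, with medians of 98.1%, 71.1% and 99.2% in A30P and 38.8%, 1.87% and 72.2% in WT, while miR-30b and miR-30d overlap.

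Both arms were listed for 94 hairpins, and over all of them the median difference in arm balance was 0.006, with 50% on the 3p side in A30P relative to WT. The 5 miR-30 hairpins all differed toward 3p, at ranks 3 (miR-30c), 4 (miR-30a), 6 (miR-30d), 8 (miR-30e) and 12 (miR-30b) from the 3p end. Among the other 89 the median was -0.09, and 47.2% lay toward 3p. Groups without overlap were found for 4 of the 5 miR-30 hairpins, where 12.8% of all hairpins lay toward 3p and 14.9% toward 5p without overlap, and nothing is read from the count, since this contrast chose the family. Among the 4 is miR-30d, whose 3p shares overlapped. Outside replicate 6 its A30P reads were too few for ratios as low as those of WT, so its separation and rank are not read. Ranked next to the miR-30 hairpins were miR-708 (7.57), miR-148a (5.27), miR-191 (4.63), miR-195a (4.30), miR-673 (3.91) and miR-204 (3.10), each on the log2 scale. Over the 347 miRNAs with a RefSeq sequence, the median log2 fold change of the normalized counts was -2.52 for the 146 that begin with U, -2.33 for the 67 with C, -3.08 for the 94 with A and -2.14 for the 40 with G. The miR-30 5p arms with a sequence begin with U and the 3p arms with C. Of the listed miRNAs, 12 of the 146 with U and 13 of the 67 with C were called higher in A30P, and 102 and 44 lower, with the miR-30 arms among them. For A and G, 3 of the 94 and 2 of the 40 were called higher, and 72 and 28 lower.

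**Figure D4:**
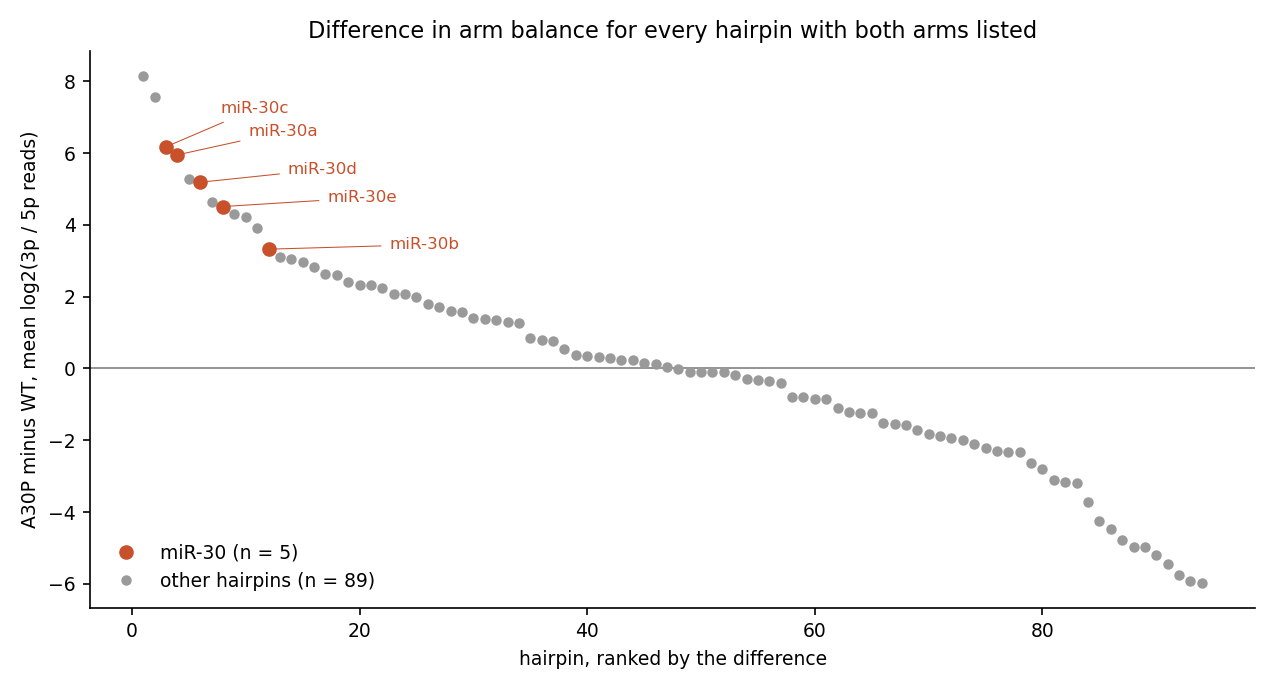
Difference in arm balance, A30P minus WT, as the mean log2 ratio of 3p to 5p reads (vertical axis), for the 94 hairpins with both arms listed, ranked from the largest (horizontal axis). The 5 miR-30 hairpins lie between 3.32 and 6.17, among the first 12, while the 89 others run from 8.14 to -5.96 around a median of -0.09. The differences of miR-30d and miR-30b rest on the fewest A30P reads, and that of miR-30b counts a library without reads as equal arms.

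The Nfyc hairpins, Mir30c-1 and Mir30e, were set against the other hairpins within each library. Among the 5p arms the only one from Nfyc alone is miR-30e-5p. It made up 0% to 60% of the reads of miR-30e-5p, miR-30a-5p, miR-30b-5p and miR-30d-5p together in A30P libraries and 0.897% to 6.21% in WT libraries. The groups overlapped, the difference in mean log2 ratio was 1.60, and the 60% is 6 of 10 reads in A30P replicate 7. miR-30e-5p over miR-30a-5p alone differed by 0.74, again with overlap, and by -0.17 without A30P replicate 7.

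Among the 3p arms, those of miR-30e and miR-30c-1 together made up 20% to 36.1% of the family's 3p reads in A30P libraries and 27.6% to 39.1% in WT libraries. The groups overlapped and the difference in mean log2 ratio was -0.58. miR-30e-3p made up 21.3% to 39.1% of the reads of miR-30e-3p and miR-30a-3p in A30P libraries and 30.4% to 43.9% in WT libraries, with overlap and a difference of -0.70.

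The 3p arms of the miR-30c copies can be compared directly. miR-30c-1-3p, the Nfyc copy, made up 1.67%, 2.39% and 0.319% of the miR-30c 3p reads in A30P replicates 3, 6 and 8, against 10.8% to 30.5% in WT libraries, with every one of these 3 below every WT library. No miR-30c-1-3p read was found in A30P replicates 1, 2, 4 and 7, where 48, 75, 14 and 17 miR-30c 3p reads allow a share of up to 6.25%, 4%, 21.4% and 17.6%. The limits of replicates 1 and 2 lie below the lowest WT share, and those of replicates 4 and 7 do not. In A30P replicate 6, with 2135 miR-30c 3p reads, the interval was 1.82% to 3.13%. The lowest WT share, in replicate 8, had an interval of 8.92% to 13.0%. The difference in mean log2 ratio was -3.66 and depended on the reads added to each count, since 4 A30P libraries were at 0. These 3p arms share a seed and sit opposite the same 5p sequence, and their log2 fold changes were -3.96 for miR-30c-1-3p and 1.99 for miR-30c-2-3p. The size of the former depends on the pseudocount of 1. It was -5.92 with a pseudocount of 0.1 and -1.86 with 10, where that of miR-30c-2-3p was 2.00 and 1.94.

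**Figure D5:**
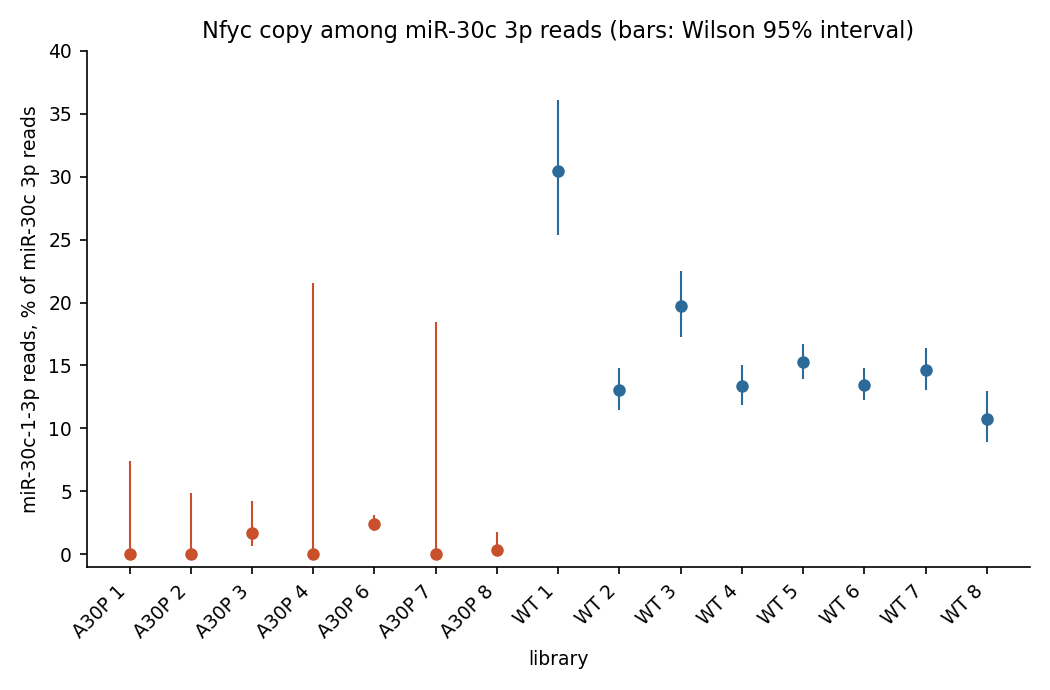
Share of miR-30c-1-3p, the copy in Nfyc, among all miR-30c 3p reads (vertical axis, percent) in each library (horizontal axis), A30P replicates left of WT replicates, with Wilson 95% intervals as bars. The A30P libraries lie at 0% to 2.39%, with wide intervals in replicates 4 and 7, and the WT libraries at 10.8% to 30.5%.

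Within the 8 WT libraries the arms were compared without the A30P libraries. The WT values were part of the contrast that chose the family, so these tests are not independent of that choice. The arm balance of each hairpin was tested against equal arms with an exact sign-flip permutation test, two-sided and adjusted over the 5 hairpins, for which 8 libraries allow no raw p below 0.0078125. miR-30c and miR-30d were 5p-dominant in 8 of 8 libraries, with mean log2 ratios of -5.37 ± 0.75 and -9.68 ± 0.96, and miR-30e was 3p-dominant in 8 of 8, at 1.49 ± 1.11 (SD, n = 8; exact adjusted p = 0.0130 for each of these). miR-30a averaged -0.35 ± 1.06 (exact p = 0.352) and miR-30b -1.32 ± 1.99 (exact adjusted p = 0.146), with 3p reads exceeding 5p reads in 2 of 8 libraries, WT replicates 1 and 8. Without those libraries the means were -0.89 for miR-30a and -2.26 for miR-30b. The 6 that remain all lie on the 5p side, so a p-value there is fixed by the choice of libraries and is not read. The hairpins of the family thus differed in which arm led in the same WT libraries.

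The order of read levels in WT was tested between neighbours with the same exact permutation test, paired by library and adjusted over 10 pairs. The order was taken from the WT means of these same libraries, so the p-values do not allow for that choice. The mature arms with a sequence are 22 or 23 bases long, so length hardly enters, but capture of different sequences into a library can differ, and that part was not measured. miR-30c-5p lay above miR-30d-5p by 1.20 and miR-30d-5p above miR-30a-5p by 1.83 on the log2 scale, each in 8 of 8 libraries. miR-30a-5p and miR-30a-3p, arms of one hairpin, did not differ beyond their spread (0.35, exact adjusted p = 0.391). miR-30a-3p lay above miR-30e-3p (0.66) and miR-30e-3p above miR-30e-5p (1.48), each in 8 of 8 libraries. miR-30e-5p lay above miR-30b-5p by 0.76 in 7 of 8 libraries (exact adjusted p = 0.0446), a call that was lost when any of replicates 1, 3, 4, 5, 6, 7 or 8 was left out (exact adjusted p = 0.0670 to 0.0893). miR-30b-5p and miR-30c-2-3p did not differ beyond their spread (-0.67, exact adjusted p = 0.430). miR-30c-2-3p lay above miR-30b-3p by 1.98 in 8 of 8 libraries, and miR-30b-3p and miR-30c-1-3p differed by 0.41 without passing (exact adjusted p = 0.0586). That pair passed without WT replicate 1 (0.53) or replicate 8 (0.48), each at an exact adjusted p of 0.0446. In both of these libraries miR-30c-1-3p was the higher arm. The passes thus follow from which library was left out and are not read. miR-30c-1-3p lay above miR-30d-3p by 2.55 in 8 of 8. All calls in 8 of 8 libraries had an exact adjusted p of 0.0130.

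The arms also differed in how far they varied among WT libraries. The SD of log2(value + 1) over the 8 libraries was 2.04 for miR-30b-5p, 1.47 for miR-30e-5p, 1.30 for miR-30a-5p, 0.67 for miR-30c-5p and 0.50 for miR-30d-5p. It was 0.39 for miR-30a-3p, 0.29 for miR-30c-2-3p, 0.35 for miR-30b-3p, 0.40 for miR-30c-1-3p, 0.59 for miR-30e-3p and 1.14 for miR-30d-3p, the least abundant arm. The median was 1.30 over the 5p arms and 0.39 over the 3p arms, beside 0.77 over the 169 miRNAs with a WT mean of at least 100. miR-30a-5p spanned a 9.39-fold range and miR-30a-3p, from the same hairpin, a 1.95-fold range. WT replicates 1 and 8 were the lowest in all 5 5p arms. Their mean minus that of the other 6 WT libraries had a median of -2.66 (log2) over the 5p arms and -0.45 over the 3p arms, beside -0.97 over the 169 miRNAs. Without them the SD of miR-30a-5p was 0.50 and that of miR-30b-5p 0.88. These libraries were also the shallowest in WT, and the part of depth was not tested.

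The miRNAs whose profile over the 8 WT libraries was most like each abundant arm were found by the mean absolute difference of centred log2 values, among 161 candidates outside the family. For miR-30a-5p they were let-7g-5p (0.148) and miR-185-5p (0.157), and for miR-30a-3p miR-140-3p (0.127) and miR-219a-2-3p (0.167), an oligodendrocyte miRNA. For miR-30c-5p they were miR-103-3p (0.149) and miR-409-5p (0.204), and for miR-30d-5p miR-668-3p (0.139) and miR-409-5p (0.181). miR-30e-5p was nearest to miR-411-5p (0.152) and miR-146b-5p (0.236), and miR-30e-3p to miR-1843a-5p (0.196) and miR-25-3p (0.207). miR-30b-5p was nearest to miR-26b-5p (0.309) and miR-7a-5p (0.382), and miR-30c-2-3p to miR-100-5p (0.159) and miR-106b-3p (0.164). The median distance of the candidates was 0.547 to 1.31, depending on the arm. The 8 points share their libraries and depths, so these distances describe only the profiles. For none of these 8 arms was the other arm of its own hairpin the nearest member of the family.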

How the data were processed

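Per the labels' protocols, midbrain RNA was extracted with Trizol and small RNA libraries were made with a TruSeq kit, while library column names start with NEB, per the file headers, so the kit is uncertain. The submitters' processing notes name the mm9 build and DESeq. The sources used here do not name the aligner, the counter or the miRNA annotation. One table was deposited by the authors, holding, per the file headers, for 396 miRNAs a normalized count per library (a signal value, reads divided by a size factor), a test statistic and group means (score, not used), a log2 fold change with its standard error, and a p-value with its adjusted value. The columns named CT were read as WT and matched by number. Dividing each library by its step gave whole reads for 100% of values (within 1e-05).

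limma 3.58.1 (trend, robust; R 4.3.3) was fitted to log2(value + 1) over all 396 miRNAs (mean of at least 1 in either group) and adjusted by Benjamini-Hochberg at 0.05. edgeR 4.0.16, DESeq2 1.42.0 and limma-voom ran on the recovered reads as alternatives. The fits were run on simulated counts, but a pass was required only of limma at equal library depths. That is no check of the fits at the unequal depths of these libraries. Arm balance was log2((3p reads + 0.5)/(5p reads + 0.5)) in each library. Exact sign-flip tests used all 256 flips of 8 libraries (Python 3.11.15, numpy 2.4.6, pandas 2.3.3, scipy 1.17.1), with figures from matplotlib 3.10.9. The text names every miR-30 arm, listed miRNAs with one of their seeds, the 2 nearest WT profiles of each arm with a WT mean of at least 100, and the hairpins ranked next to the miR-30 hairpins. The members and lists were chosen with earlier results of these data known.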

Additional observations from a re-analysis of the deposited data

Results flagged for a closer look

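Of 36 groups of values examined (the 11 arms and miR-384-5p, the hairpin shares and the family share, by genotype), 12 held a library far from the rest by Dixon's criterion at 95%, which chance alone meets in about 1 in 20 groups. The groups share libraries and are not independent. A30P replicate 6 was the distant library in 8 of them. It had 1038 normalized counts of miR-30a-5p (0 to 226 in the other A30P libraries), 59.6 of miR-30b-5p (0 to 5.15), 2314 of miR-30c-5p (211 to 904) and 968 of miR-30d-5p (190 to 322). Its 3p share was 73.9% for miR-30a (97.4% to 100% in the others), 44.8% for miR-30b (85.7% to 100%), 13.8% for miR-30c (62.5% to 80.0%) and 54.0% for the family (93.4% to 96.5%). A30P replicate 2 stood apart at 40.2 normalized counts of miR-30d-3p and an 11.1% 3p share of miR-30d, both from the same 2 reads. A30P replicate 7 had 307 normalized counts of miR-30e-5p, from 6 reads. WT replicate 1 had 68.6 normalized counts of miR-30c-1-3p, against 27.4 to 36.2 in the other WT libraries.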

How the results depend on the processing

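All 9 arms called by limma kept the sign of their log2 fold change in every alternative run, though not always their call. miR-30a-5p and miR-30e-5p were not called with TMM scaling (-2.23 and -1.67), in edgeR (-0.96 and -0.69) or in limma-voom (-1.28 and -0.74), nor without the 4 shallow A30P libraries. DESeq2 on the recovered reads did call both (-2.30 and -2.02). miR-30c-1-3p was not called in limma-voom (-0.53) and moved to -2.36 without the 4 A30P libraries under 100000 reads. miR-30b-3p changed sign to 0.15 with TMM scaling, 0.86 in edgeR and 1.11 in limma-voom, and miR-30d-3p to 0.15 with TMM scaling, 0.23 in DESeq2 and 0.043 without the 4 A30P libraries under 100000 reads. The 33 higher and 281 lower miRNAs became 62 and 114 in edgeR and 77 and 88 in limma-voom, both over 318 tested miRNAs, 45 and 218 with TMM scaling and 22 and 313 when each library was scaled to its listed reads. In DESeq2 they were 47 and 191. With single libraries left out they ranged from 28 to 34 and from 267 to 293. When reads were pooled over libraries, which weights A30P replicate 6 most, the arm balance difference was 2.96 for miR-30a, 3.42 for miR-30c and 1.69 for miR-30d, and that of the Nfyc pair 0.12 (5p arms) and -0.20 (3p arms). With single libraries left out it stayed between 5.34 and 6.63 for miR-30a, 2.78 and 3.82 for miR-30b, 5.98 and 6.75 for miR-30c, 4.89 and 5.73 for miR-30d, and 4.24 and 4.88 for miR-30e. For the Nfyc pair it stayed between 0.98 and 1.78 (5p) and between -0.69 and -0.49 (3p). The ratio of miR-30e-5p to miR-30a-5p changed sign to -0.79 with pooled reads and, with single libraries left out, ranged from -0.17 (without A30P replicate 7) to 0.99. Within WT, 5 hairpins rather than 3 passed without WT replicates 1 and 8, which are the libraries of opposite sign for the added pair, so this is no sign of stability, and miR-30b-5p lay above miR-30c-2-3p by 0.39. The causes of these shifts were not tested.

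Same-numbered A30P and WT libraries did not deviate together (correlation -0.28 to 0.27, over 0.1 in 2 of 7 pairs), so the numbers were not taken as pairs. With the replicate number as a block, limma called 28 miRNAs higher and 269 lower, and the log2 fold change of miR-30a-3p was 3.41. Under this block miR-30e-5p (-2.54) was no longer called.

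Depth limits the 5p arms, miR-30c-1-3p, miR-30b and miR-30d most in A30P replicates 1, 2, 4 and 7.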
